A study of Mus musculus with 27 samples.

Results

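The mu-class glutathione transferases of the mouse are encoded by 7 genes, Gstm1 to Gstm7, which were followed here through liver regeneration with and without etomoxir. They were taken by gene name, 7 of the 54532 genes in the deposited table, and all 7 passed the filter on low values (12376 genes did). The family was proposed with earlier results of these data in view, among them that Gstm3 had one of the largest rises 48 h after resection over sham, and it is treated here as chosen on that contrast. The contrast is therefore given as a description with no test, and since it is not known whether other contrasts also entered the choice, the p-values elsewhere are not independent support.

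RNA was sequenced from livers of wild-type C57/BL6J mice in 27 libraries. In PHx24_ETO (n = 4), livers were taken 24 h after removal of 70% of the liver, and etomoxir, an inhibitor of the carnitine palmitoyltransferase that lets long-chain fatty acids into mitochondria, had been given intraperitoneally (12.5 mg/kg) 4 h ahead of surgery. PHx24 (n = 7) is the same operation and time without etomoxir. In PHx48_ETO (n = 4) the liver was taken at 48 h and a further etomoxir dose was given 24 h after surgery, and PHx48 (n = 7) is its counterpart without etomoxir. Sham-operated mice (n = 5) carry no time in the labels. No age, sex or vehicle is given, and nothing states that each library came from its own mouse, so the spread between libraries may be partly technical. Libraries held 14903757 to 18446372 counts.

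Glutathione transferases join the tripeptide glutathione to electrophilic molecules such as epoxides, quinones and the aldehydes of lipid peroxidation. The conjugates are pumped out of the cell and trimmed to mercapturates. In mouse liver the genes respond to NRF2 (Nfe2l2), a transcription factor that is held by KEAP1 and set free by oxidants, and to the drug receptors CAR (Nr1i3) and PXR (Nr1i2). Gstm1 encodes the main hepatic mu-class enzyme of the mouse, and Gstm3 is a well-known NRF2-inducible gene of mouse liver. The human counterpart of Gstm2 acts on quinones derived from dopamine, and Gstm5, the counterpart of human GSTM3, is best known from brain and testis.

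The 7 genes lie side by side on chromosome 3 of GRCm38, between bases 107895821 and 108044894, a stretch of 149.1 kb. Gstm5 is on the plus strand and the other 6 are on the minus strand. Their coding sequences, read from the GENCODE M21 annotation, are alike: identity was between 69.9% for Gstm3 with Gstm5 and 89.4% for Gstm1 with Gstm3. Because family members can take each other's reads, the same 60-base coding stretch of each gene is shown, with capitals marking the bases that differ from Gstm1. In the transcripts used it runs from coding base 37 to 96, and in Gstm5, whose coding sequence begins with a longer first part, from 46 to 105.
Gstm1: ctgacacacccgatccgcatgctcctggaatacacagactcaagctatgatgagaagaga
Gstm2: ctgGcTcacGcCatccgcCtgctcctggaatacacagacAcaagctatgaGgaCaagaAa
Gstm3: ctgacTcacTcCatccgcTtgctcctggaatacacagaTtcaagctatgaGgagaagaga
Gstm4: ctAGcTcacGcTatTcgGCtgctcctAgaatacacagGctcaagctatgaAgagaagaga
Gstm5: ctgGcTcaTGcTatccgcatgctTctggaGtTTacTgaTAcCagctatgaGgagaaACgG
Gstm6: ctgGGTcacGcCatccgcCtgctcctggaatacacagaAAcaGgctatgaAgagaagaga
Gstm7: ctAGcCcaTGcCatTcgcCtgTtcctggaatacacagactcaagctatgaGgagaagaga
In this stretch Gstm3 differed from Gstm1 at 6 bases and Gstm5 at 17, with the other 4 genes between them.

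Over whole transcripts, a stretch of 100 bases was seldom shared. Of all such stretches, 3.8% in Gstm3, 1.27% in Gstm1 and 1.1% in Gstm6 also occurred in another member, and none in Gstm2, Gstm4, Gstm5 or Gstm7. With genes outside the family counted too, 13.8% of the Gstm3 stretches and 5.86% of those of Gstm1 were shared, chiefly with Gm8834 and the processed pseudogene Gstm2-ps1. At 150 bases no stretch was shared between members, but 3.44% of those of Gstm3 also occurred in Gm8834. At 50 bases, 15.8% of the stretches of Gstm3, 8.88% of Gstm1, 3.49% of Gstm6 and 0.655% of Gstm2 occurred in another member. With all genes counted, 28.8% of the 50-base stretches of Gstm3 and 18.9% of those of Gstm1 were shared. How the authors' counting treated reads with several origins is not given in the sources used here. Values of Gstm1, Gstm3, Gstm6 and, over fewer stretches, Gstm2 are therefore uncertain where reads fell in those parts. Gstm5 overlaps the antisense gene 4933431E20Rik over 178 exonic bases, and without strand the reads of that part cannot be told apart.

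The RefSeq promoter windows (GRCm38.p6, 250 bases before to 50 after a start) matched all 7 members, with 12 windows among them. The core letters of the antioxidant response element, TGACNNNGC on either strand, the sequence that NRF2 binds, occur in 12.4% of 32851 such windows. Among the members only windows of Gstm5 and Gstm7 held them. The parts of the Gstm3 and Gstm5 windows that lie upstream of every annotated exon are shown as the member with the largest fold differences and one with among the smallest, with the match in capitals; the first is chr3:107969284-107969424 on the minus strand and the second chr3:107895604-107895820 on the plus strand.
Gstm3: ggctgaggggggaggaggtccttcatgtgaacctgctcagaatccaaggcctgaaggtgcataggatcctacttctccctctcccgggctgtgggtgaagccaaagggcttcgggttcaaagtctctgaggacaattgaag
Gstm5: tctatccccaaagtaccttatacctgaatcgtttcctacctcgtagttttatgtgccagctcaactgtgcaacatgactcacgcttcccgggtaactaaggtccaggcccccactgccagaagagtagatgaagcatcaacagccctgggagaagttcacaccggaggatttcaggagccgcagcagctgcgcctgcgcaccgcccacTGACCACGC
The Gstm3 window had no match, which says only that these letters are not in it. The STAT palindrome TTCNNNGAA, found in 8.3% of all windows, occurred in a window of Gstm6 alone among the members.

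Levels below are FPKM, fragments per kilobase of gene length scaled by the authors for library size. In PHx24 livers Gstm1 averaged 1487 ± 513.5 FPKM (SD, n = 7), Gstm3 1218 ± 641.6, Gstm2 220.2 ± 69.69, Gstm4 71.82 ± 22.14, Gstm6 54.54 ± 17.21, Gstm7 33.54 ± 5.617 and Gstm5 8.485 ± 1.264. There the ranges of Gstm1 and Gstm3 overlapped, as did those from Gstm4 to Gstm7 in that order, while Gstm2 and Gstm5 stood clear of their neighbours. Gstm1 was the most abundant member in sham livers, at 933.1 ± 131.4 FPKM (SD, n = 5). Gstm3 followed at 71.15 ± 27.95, Gstm6 at 65.46 ± 7.704, Gstm2 at 45.27 ± 8.521, Gstm7 at 40.66 ± 4.373 and Gstm4 at 38.91 ± 6.805 FPKM. From Gstm3 to Gstm4 in that order, the ranges of neighbours overlapped. Gstm5 was lowest, at 7.905 ± 1.865 FPKM in sham, and stayed between 4.781 and 10.86 FPKM in all 27 libraries.

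**Figure D1:**
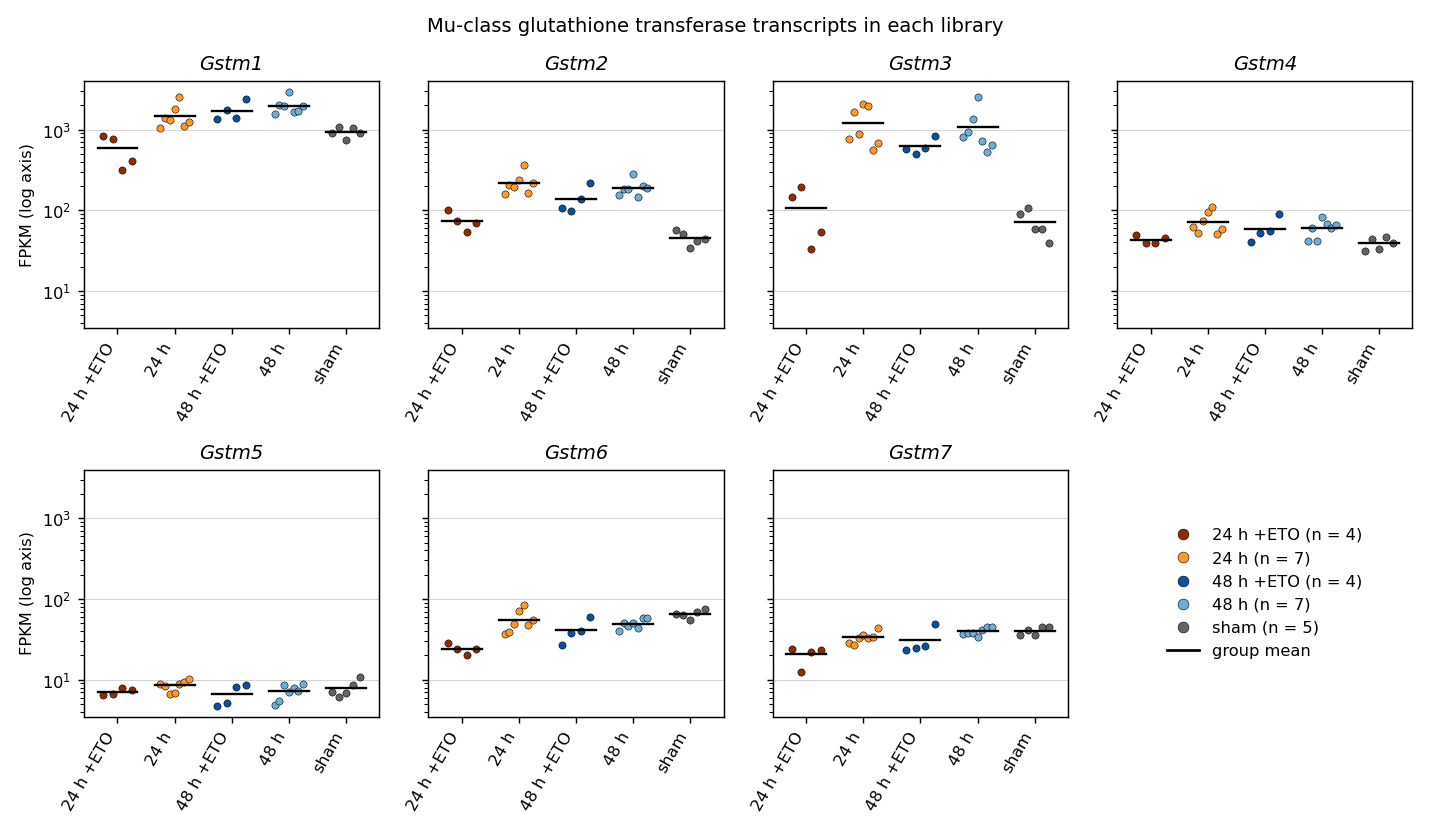
FPKM of each mu-class gene on a shared log axis, one point per library and a line at each group mean, for 24 h with etomoxir (n = 4), 24 h (n = 7), 48 h with etomoxir (n = 4), 48 h (n = 7) and sham (n = 5). Gstm3 spans the widest range, 33.05 to 2516 FPKM, while Gstm5 stays between 4.781 and 10.86.

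Gstm1, Gstm2, Gstm3 and Gstm4 rose by 24 h after hepatectomy, Gstm3 by the largest fold of the 7. Gstm5, Gstm6 and Gstm7 did not pass the test. Over all genes tested, 19.1% were called higher at 24 h than in sham, so 4 of 7 members called higher stand beside a background of 2366 of 12376 genes.

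Gstm3, the NRF2-inducible enzyme, had 563.6, 871.9 and 2053 FPKM as the lowest, median and highest PHx24 values. In sham livers it had 91.27, 108.1, 58.38, 59.19 and 38.8 FPKM. Every PHx24 library was above every sham library. The share of all genes so separated was not worked out, for this contrast or those below, so nothing is read from such positions. The log2 fold change was 4.10 ± 0.511 (SE), a 17.2-fold difference with an adjusted p of 1.59e-06 by edgeR's quasi-likelihood test.

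Gstm2 ranged over 158.7, 203.6 and 363.8 FPKM (lowest, median, highest) in PHx24. Its sham values were 56.52, 50.37, 34.33, 41.21 and 43.92 FPKM. These groups did not overlap either, and the log2 fold change was 2.29 ± 0.236 (edgeR adjusted p = 1.28e-07). Gstm2 was thus the member with the lowest adjusted p at 24 h, although Gstm3 had the larger fold.

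Gstm1, the main hepatic enzyme, reached 1061, 1297 and 2516 FPKM (lowest, median, highest) in PHx24, against 914.2, 1072, 735.3, 1033 and 911.4 FPKM in sham. One PHx24 library lay within the sham range and 6 of 7 lay above it. The difference was 0.69 ± 0.239 on the log2 scale (edgeR adjusted p = 0.0268). That call was lost without sham replicate 1 (adjusted p = 0.0502), sham 3 (0.0823), sham 5 (0.0563), PHx24 4 (0.0506) or PHx24 5 (0.0799). Gstm4 averaged 71.82 ± 22.14 FPKM in PHx24 and 38.91 ± 6.805 in sham, with no overlap, and rose by 0.91 ± 0.205 on the log2 scale (adjusted p = 0.00119).

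The remaining 3 members gave log2 fold changes at 24 h of 0.13 ± 0.168 for Gstm5, -0.24 ± 0.177 for Gstm6 and -0.26 ± 0.162 for Gstm7, with adjusted p of 0.596, 0.302 and 0.228. Gstm5 was at -0.04 without 4 libraries that held transcripts of other tissues. Those were sham 1, PHx24 1 and PHx48 3, with summed FPKM of 5 skeletal muscle markers of 3483, 1362 and 434.6 where the group medians were 0.4239 to 5.247, and sham 2, with 716.1 FPKM of 5 exocrine pancreas markers where the sham median was 24.26. Without them the log2 fold change of Gstm3 was 4.65 (adjusted p = 4.34e-05), of Gstm2 2.55, of Gstm4 0.90 and of Gstm1 0.82, and the same 4 members were called.

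Marker lists of the cell types a liver sample could hold were read beside this rise. Of 5 neutrophil markers, the 2 tested, S100a8 and S100a9, rose by 3.32 and 2.83 on the log2 scale (edgeR adjusted p = 0.0013 and 0.00244). The summed FPKM of the list was 4.006 to 80.35 in PHx24 (median 7.772, highest in replicate 2) and 1.065 to 5.32 in sham (median 1.742). All 3 tested of 5 exocrine pancreas markers fell, and the list summed to 3.899 to 30.33 FPKM in PHx24 and 15.45 to 716.1 in sham. Of 7 hepatocyte markers 4 fell, with Apoa1 and Ttr among them, and Cps1 rose, and the list summed to 22880 to 31340 FPKM in PHx24 and 28800 to 64660 in sham. In each of the sinusoidal endothelial, cholangiocyte and erythroid lists 1 marker fell, and in the Kupffer cell, stellate cell, muscle and adipocyte lists none was called. No marker was at 0 in every library. The part of these differences in the rise of the Gstm genes was not tested.

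The 4 members that rose by 24 h also had the highest fold changes at 48 h. Both contrasts use the same sham libraries and the 48 h one entered the choice, so nothing is read from that likeness. Relative to sham, with no test because of how the family was chosen, the log2 fold changes were 3.93 for Gstm3, 2.09 for Gstm2, 1.09 for Gstm1 and 0.64 for Gstm4. Those of Gstm5, Gstm6 and Gstm7 were -0.12, -0.39 and -0.02. Of all genes tested, 7.47% were at least 2-fold higher at 48 h than in sham, and 3 of the 7 members were. Nothing is read from that count, since the contrast entered the choice. Gstm3 had 526.6, 813.2 and 2516 FPKM (lowest, median, highest) in PHx48. Every library of PHx48 was above every sham library for Gstm1, Gstm2 and Gstm3, and for the same reason nothing is read from that.

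Set directly against each other, PHx48 and PHx24 differed in no member by edgeR, where 11.6% of all genes were called in either direction. At an unadjusted p under 0.05 the count over all genes was 3194, and DESeq2 called no member either. Gstm3 averaged 1076 ± 688.7 FPKM in PHx48 and 1218 ± 641.6 in PHx24, and Gstm1 1964 ± 450.1 in PHx48 and 1487 ± 513.5 in PHx24. The log2 fold changes lay between -0.26 and 0.40, and missing the threshold does not show that the times were alike. Spread among livers was wide for Gstm3, with a highest over lowest library of 4.777 in PHx48 and 3.644 in PHx24, against 2.787 in sham.

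Most of the family was lower with etomoxir at 24 h. Gstm1, Gstm2, Gstm3, Gstm6 and Gstm7 fell in PHx24_ETO relative to PHx24, while Gstm4 and Gstm5 did not pass the test. Among all 12376 genes 1.33% were called lower, and 5 of the 7 members were. The PHx24 libraries are the same ones that were compared with sham above, so the directions in the 2 contrasts are not independent of each other.

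Gstm3 had 147.1, 192.4, 33.05 and 53.63 FPKM in the 4 PHx24_ETO libraries, against 563.6, 871.9 and 2053 FPKM as the lowest, median and highest of PHx24. All 4 were below every PHx24 library. Gstm3 fell by 3.53 ± 0.546 on the log2 scale, 11.5-fold (edgeR adjusted p = 0.00165).

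Gstm2 had 99.95, 74.32, 53.86 and 70.05 FPKM in PHx24_ETO, against 158.7, 203.6 and 363.8 FPKM (lowest, median, highest) in PHx24. It fell by 1.58 ± 0.248 on the log2 scale (adjusted p = 0.00165). Gstm1 had 839.4, 774.1, 320 and 411.6 FPKM in PHx24_ETO, against 1061, 1297 and 2516 FPKM in PHx24, and fell by 1.36 ± 0.266 (adjusted p = 0.00788). For both genes the groups did not overlap, and replicates 3 and 4 of PHx24_ETO were lower than 1 and 2, as they were for Gstm3. How many of all genes had no overlap here was not worked out either.

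Gstm6 and Gstm7, which resection alone had not moved past the threshold, were also lower with etomoxir at 24 h. Gstm6 had 28.15, 24.17, 19.97 and 24.09 FPKM in PHx24_ETO, against 36.45, 49.63 and 84.25 FPKM (lowest, median, highest) in PHx24, and fell by 1.19 ± 0.201 on the log2 scale (adjusted p = 0.00282). Gstm7 averaged 20.53 ± 5.326 FPKM in PHx24_ETO and 33.54 ± 5.617 in PHx24, and fell by 0.72 ± 0.18 (adjusted p = 0.0278). The Gstm7 call was lost without PHx24 replicate 4 (0.0538), PHx24 7 (0.0523), PHx24_ETO 2 (0.118) or PHx24_ETO 3 (0.059), and with no filter on low values (0.0592).

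Gstm4 gave -0.75 ± 0.22 on the log2 scale (adjusted p = 0.0604), with all 4 PHx24_ETO libraries, 39.25 to 49.08 FPKM, below the lowest PHx24 library at 51.23 FPKM. DESeq2 called it (adjusted p = 0.0194), as did edgeR without PHx24_ETO 1 (0.0353), PHx24 2 (0.0381), PHx48_ETO 4 (0.0386) or PHx24 6 (0.0497). Gstm5 gave -0.28 ± 0.181 (adjusted p = 0.402) and its groups overlapped.

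All calls of this comparison rest on a spread estimated over the 5 groups. When only PHx24_ETO and PHx24 were fitted, no gene of the 12376 passed the threshold, although 2058 had an unadjusted p under 0.05. The fold changes were as before, and the adjusted p was 0.0522 for Gstm2 and Gstm3, 0.0605 for Gstm6, 0.0849 for Gstm1 and 0.0986 for Gstm7. Leaving out any 1 of the 27 libraries from the joint fit kept the calls of Gstm1, Gstm2, Gstm3 and Gstm6.

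In this comparison no tested gene of the erythroid (3), Kupffer cell and macrophage (6) or sinusoidal endothelial (5) lists was called. The same held for the neutrophil (2), stellate cell (5), cholangiocyte (3), skeletal muscle (5), exocrine pancreas (3) and adipocyte (4) lists. The summed FPKM of 4 erythroid markers, of which none was at 0 throughout, was 83.1 to 159.4 in PHx24_ETO and 180.7 to 405.2 in PHx24. That of 6 Kupffer cell and macrophage markers was 26.6 to 40.64 in PHx24_ETO and 36.29 to 61.39 in PHx24, and that of 5 sinusoidal endothelial markers was 11.21 to 18.8 in PHx24_ETO and 18.02 to 22.63 in PHx24. The erythroid ranges did not overlap and the other 2 did. The 7 hepatocyte markers, all strongly expressed, summed to 26320 to 33560 FPKM in PHx24_ETO and 22880 to 31340 in PHx24. Of these 7, 1 was called higher and none lower, where 1.58% of all genes were called higher. The part of these differences in the fall of the Gstm genes was not tested. In whole tissue, fewer cells of a type and less RNA per cell cannot be told apart.

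**Figure D2:**
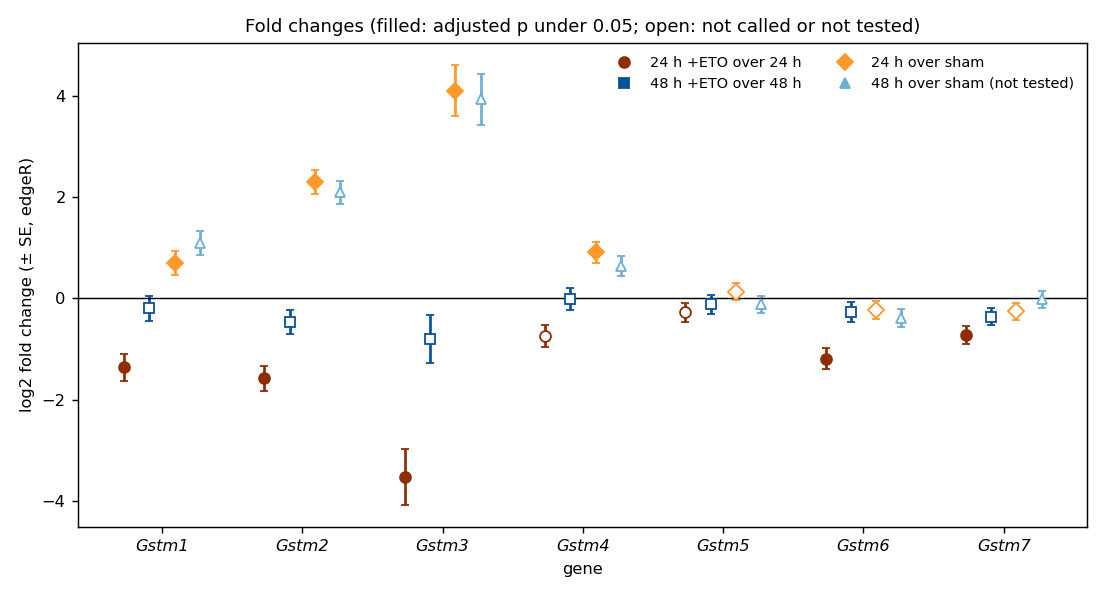
Log2 fold changes with SE from edgeR for the 7 genes in 4 comparisons, filled where the adjusted p was under 0.05 and open where it was not or where no test was made. Etomoxir at 24 h gives the lowest value for each gene, down to -3.53 for Gstm3, while the 48 h etomoxir values lie between -0.80 and -0.01.

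Compared with sham, PHx24_ETO livers had more Gstm2 and less Gstm6 and Gstm7, and the other 4 members did not pass the test. This contrast and the next 2 with etomoxir-treated groups were added after the counts had been seen. Gstm2 was higher than sham by 0.72 ± 0.248 on the log2 scale (edgeR adjusted p = 0.027), where 19.7% of genes were called higher. Gstm6 fell by 1.44 ± 0.212 (adjusted p = 1.55e-05) and Gstm7 fell by 0.98 ± 0.191 (adjusted p = 0.000324), where 15.6% of genes were called lower. For both, every PHx24_ETO library was below every sham library, a position whose share over all genes was not worked out. Gstm3 gave 0.57 ± 0.489 (adjusted p = 0.38), Gstm1 -0.67 ± 0.272 (adjusted p = 0.0579), Gstm4 0.16 ± 0.229 (adjusted p = 0.627) and Gstm5 -0.15 ± 0.193 (adjusted p = 0.568). Gstm1 was called lower than sham by DESeq2 (0.0261), by limma (0.0269), with DESeq2 size factors in edgeR (0.0469), and without PHx24_ETO 1 (0.0186), PHx24_ETO 2 (0.0359), PHx24 5 (0.0378), sham 3 (0.0409) or PHx48 4 (0.0419). Gstm2 lost its call without sham 3 (0.0769), sham 4 (0.0627) or PHx24_ETO 1 (0.117).

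Gstm1, Gstm2, Gstm3, Gstm6 and Gstm7 were higher in PHx48_ETO than in PHx24_ETO, and Gstm4 and Gstm5 did not pass the test. Gstm3 had 574.8, 494.1, 587.1 and 826 FPKM in PHx48_ETO, all above the 147.1, 192.4, 33.05 and 53.63 FPKM of PHx24_ETO, with a log2 fold change of 2.55 ± 0.547 (adjusted p = 0.00222). Gstm1 had 1366, 1749, 1383 and 2368 FPKM in PHx48_ETO, against 839.4, 774.1, 320 and 411.6 FPKM in PHx24_ETO, a rise of 1.56 ± 0.29 (adjusted p = 0.000612). Gstm2 rose by 0.91, Gstm6 by 0.78 and Gstm7 by 0.61 on the log2 scale (adjusted p = 0.02, 0.0162 and 0.0376). In this contrast 7.31% of genes were called higher, and 5 members were. The calls of Gstm1 and Gstm3 held under every alternative run, and the others were less stable. Gstm2, Gstm6 and Gstm7 lost their calls when only those groups were fitted (adjusted p = 0.0993, 0.0826 and 0.254), without PHx24_ETO replicate 3 (0.0726, 0.0582 and 0.0579) and without PHx48_ETO replicate 4 (0.124, 0.0976 and 0.288). Gstm2 also lost it without PHx24_ETO 4 (0.0524), and Gstm7 without PHx24_ETO 2 (0.129), by limma (0.0582), with no filter (0.0973) and without the 4 libraries with muscle or pancreas transcripts (0.0502). The contrast also differs by the second etomoxir dose.

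Relative to sham, PHx48_ETO livers had more Gstm3 (log2 fold change 3.12 ± 0.514, adjusted p = 5.56e-05), Gstm2 (1.63 ± 0.25, adjusted p = 2.43e-05), Gstm1 (0.89 ± 0.268, adjusted p = 0.0135) and Gstm4 (0.63 ± 0.228, adjusted p = 0.0395), where 16.2% of genes were called higher. Gstm6 fell by 0.66 ± 0.207 (adjusted p = 0.0171), where 13.3% were called lower. Without PHx48_ETO 4 the calls of Gstm1 (0.062) and Gstm4 (0.239) were lost and Gstm7 was called lower (0.00199). Gstm6 lost its call without PHx48_ETO 1 (0.0705) and with equal library totals (0.0599). The Gstm4 call held in 24 of 37 alternatives. Those that lost it were the fit without PHx48_ETO 4, the fit of only those groups (0.0573), limma with either pseudocount (0.0704 and 0.0687), the other filters (0.051 and 0.0653), DESeq2 size factors (0.0503), the fit without the 4 libraries with muscle or pancreas transcripts (0.11), and those without sham 1 (0.097), sham 3 (0.0982), sham 5 (0.0721), PHx24_ETO 3 (0.0512) or PHx48_ETO 3 (0.0556).

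Between PHx48_ETO and PHx48 no member passed the edgeR test, where 0.21% of all genes were called in either direction (1004 at an unadjusted p under 0.05), and DESeq2 called none of the members. Gstm3 averaged 620.5 ± 143.1 FPKM in PHx48_ETO and 1076 ± 688.7 in PHx48, a log2 fold change of -0.80 ± 0.471 (adjusted p = 0.707). All 4 PHx48_ETO libraries were below the PHx48 mean, but only 1 of them was below the lowest PHx48 library. Gstm1 averaged 1717 ± 468.9 FPKM in PHx48_ETO and 1964 ± 450.1 in PHx48 (-0.20 ± 0.253). For Gstm2, Gstm6 and Gstm7 the edgeR adjusted p was 0.633, 0.772 and 0.62. In these, 3 of 4 PHx48_ETO libraries lay below every PHx48 library, and PHx48_ETO 4 lay within or above that group. The share of all genes with such positions was not worked out, so nothing is read from them.

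Whether the etomoxir difference changed between the times was tested as an interaction. The difference at 48 h minus that at 24 h was 2.72 ± 0.661 for Gstm3, 1.16 ± 0.357 for Gstm1, 1.11 ± 0.329 for Gstm2 and 0.92 ± 0.271 for Gstm6 on the log2 scale. None passed the edgeR test (adjusted p = 0.215, 0.287, 0.279 and 0.278), where 0.0162% of all genes were called and 1064 had an unadjusted p under 0.05. DESeq2 called Gstm3 (adjusted p = 0.0363). Without PHx24_ETO replicate 1, edgeR called Gstm3 (0.0303), Gstm1 (0.0456) and Gstm2 (0.0468). The etomoxir difference at 24 h is thus not shown to differ from that at 48 h.

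The shares of the members differed between groups, and are given without a test. Gstm3 supplied 11.13 ± 4.632% of the summed FPKM of the 7 genes in PHx24_ETO (SD, n = 4), 37.66 ± 8.186% in PHx24 (n = 7), 24.0 ± 3.153% in PHx48_ETO (n = 4), 29.8 ± 8.138% in PHx48 (n = 7) and 5.874 ± 1.937% in sham (n = 5). The share of Gstm1 was 67.12 ± 2.908% in PHx24_ETO, 49.15 ± 5.715% in PHx24, 65.54 ± 3.976% in PHx48_ETO, 59.45 ± 6.085% in PHx48 and 77.54 ± 1.254% in sham. In PHx24 libraries 2 and 4 Gstm3 exceeded Gstm1, with 1.194 and 1.146 times its FPKM. In sham the ratio of Gstm3 to Gstm1 was 0.04257 to 0.1009. Together the 7 genes took 0.1284 ± 0.05903% of all counts in PHx24_ETO, 0.4453 ± 0.1703% in PHx24, 0.3998 ± 0.08658% in PHx48_ETO, 0.537 ± 0.2041% in PHx48 and 0.1662 ± 0.02941% in sham.

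**Figure D3:**
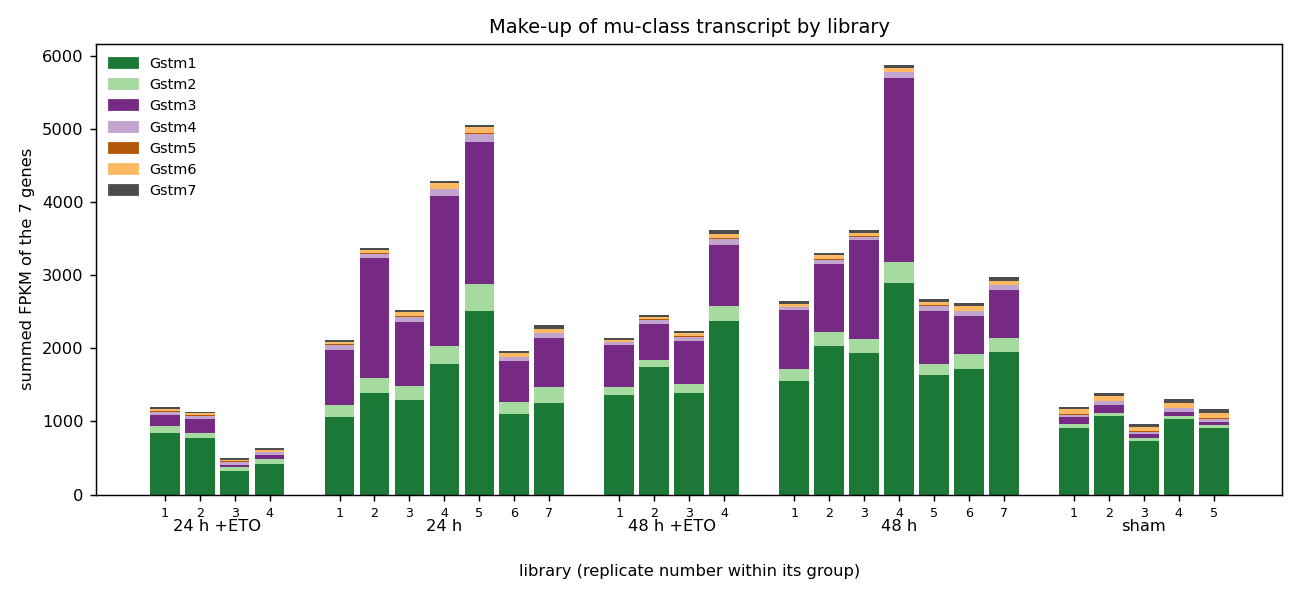
Stacked FPKM of the 7 mu-class genes, one bar per library in the order 24 h with etomoxir, 24 h, 48 h with etomoxir, 48 h and sham. The Gstm3 part is 3.332% to 7.811% of the bar in sham libraries and 28.63% to 49.08% in the 24 h libraries without etomoxir.

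Members also varied together within groups. Across the 27 libraries, after the group mean was taken from log2(FPKM + 1), Pearson's r was 0.82 between Gstm1 and Gstm3, 0.81 between Gstm1 and Gstm2 and 0.76 between Gstm4 and Gstm6. It was -0.31 between Gstm3 and Gstm7 and -0.03 between Gstm1 and Gstm5. These points share library scaling and, for Gstm1 with Gstm3, some sequence. The genes outside the family most like Gstm3 on this measure were Gm8834 (r = 0.938), Gstm2-ps1 (0.866), Gsta1 (0.775), Slc48a1 (0.773) and Sulf2 (0.742). Those most like Gstm1 were Gstm2-ps1 (0.964), Cyp2a5 (0.82), Gsta2 (0.799), Gsta4 (0.798) and Ephx1 (0.788). Gm8834 and Gstm2-ps1 share 7.43% and 3.22% of the 100-base stretches of Gstm3. Gstm2-ps1, on chromosome 5, had 0.6472 to 1.322 counts for every 100 of Gstm1 over all 27 libraries.

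The other transferase classes were read at 24 h over sham, where 15.8% of all genes were called lower and, as above, 19.1% higher. Of 4 alpha-class genes tested, which act on lipid peroxidation products and steroids, 1 fell relative to sham, Gsta3 (log2 fold change -1.11, edgeR adjusted p = 0.00116). Gsta1 gave 1.99 (adjusted p = 0.0872), and the list median was 0.14. Of 3 pi-class genes Gstp1 fell by 0.95 (adjusted p = 3.11e-05). Of 3 theta-class genes, Gstt2 rose by 1.35 (adjusted p = 4.57e-06) and Gstt3 by 1.43 (adjusted p = 0.00284). The 3 tested genes of the omega, zeta and kappa classes all fell, Gsto1 by 0.77, Gstk1 by 0.44 and Gstz1 by 0.43 (adjusted p = 3.1e-05, 0.0304 and 0.00961). Neither of the 2 microsomal genes tested was called, Mgst1 with -0.03 and Mgst3 with -0.23. The median over the 7 mu-class genes was 0.69 and that over all genes tested 0.008.

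In the etomoxir contrast at 24 h, none of the 4 alpha-class genes passed the threshold relative to PHx24, although Gsta4 (-1.53, adjusted p = 0.0506), Gsta3 (-0.99, adjusted p = 0.052) and Gsta2 (-2.09, adjusted p = 0.0532) were close to it. Gstp1 fell by 0.76 (adjusted p = 0.0166), and Gstt1 fell by 0.85 (adjusted p = 0.0305). No gene of the omega, zeta, kappa or microsomal lists was called. The median log2 fold change was -1.26 over the alpha class, -1.19 over the mu class and 0.006 over all genes.

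At 48 h relative to sham, where 19.5% of all genes were called higher and 17% lower, Gsta1 rose by 3.85 (adjusted p = 0.00237) and Gsta4 by 1.0 (adjusted p = 0.0431), and Gstp3 rose by 1.12 (adjusted p = 0.00018). Gstt2 rose by 0.94 and Gstt3 by 1.68 (adjusted p = 0.000214 and 0.000649). Mgst1, Gsto1, Gstz1 and Gstk1 fell by 0.78, 0.88, 0.39 and 0.45. Between PHx48_ETO and PHx48 no tested transferase of the mu or any other class was called.

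Of 5 tested genes for making glutathione, Gss, the enzyme of the last step, was the 1 called over sham in livers without etomoxir. It rose at 24 h by 0.71 (adjusted p = 0.000113), and at 48 h by 1.14 (adjusted p = 2.85e-07). The subunits of the rate-limiting ligase gave -0.20 for Gclc and 0.14 for Gclm at 24 h over sham. Cth and Cbs, which feed cysteine in from methionine, gave 0.51 and 0.31. Relative to PHx24, etomoxir-treated livers at 24 h had less Cth, which fell by 1.08 (adjusted p = 0.0302), while Gclc, Gclm, Gss and Cbs gave 0.28, -0.08, -0.03 and -0.40. At 48 h with etomoxir, Gclm rose by 0.46 (adjusted p = 0.0409) relative to PHx48. Between PHx48 and PHx24, Gss rose by 0.43, Gclm fell by 0.30 and Cbs fell by 0.49 (adjusted p = 0.0157, 0.0232 and 0.0446).

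Of the conjugate exporters, Abcc2 and Abcc3 were tested. Neither was called at 24 h over sham (0.10 and 0.25) or with etomoxir at 24 h (0.09 and 0.48), and at 48 h Abcc3 fell by 0.51 (adjusted p = 0.0307) and Abcc2 gave 0.34 (adjusted p = 0.0509). Among 5 genes of mercapturate processing Ggt6 rose by 1.10 (adjusted p = 2.11e-05) and Cndp2 by 0.34 (adjusted p = 0.00783) at 24 h over sham, and Acy3 gave -0.42 (adjusted p = 0.052). Of 9 genes that reduce glutathione or use it against peroxides, Gsr, the reductase, rose by 0.82 (adjusted p = 0.00227) and Glrx by 0.75 (adjusted p = 0.00286), and Gpx7 gave 0.53 (adjusted p = 0.0684). At 48 h over sham Gpx7 rose by 3.2 (adjusted p = 3.43e-10), Pgd by 0.90 (adjusted p = 0.00119) and Gsr by 0.54 (adjusted p = 0.0338), and Gpx7 rose by 2.67 in PHx48 relative to PHx24 (adjusted p = 2.69e-09). Gpx1 alone of these 9 was called in PHx24_ETO relative to PHx24 and fell by 0.80 (adjusted p = 0.0166), with Gpx7 at -0.39 and Pgd at 0.34. The Pgd value rests on the highest PHx24_ETO library, with 8.77 to 25.9 FPKM in that group (mean 13.4, SD 8.33) and 9.25 to 13.1 in PHx24. No mercapturate gene was called there, with Ggt6 at -0.49 (adjusted p = 0.121), Acy1 at -0.50 (adjusted p = 0.172) and Acy3 at -0.25 (adjusted p = 0.474).

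**Figure D4:**
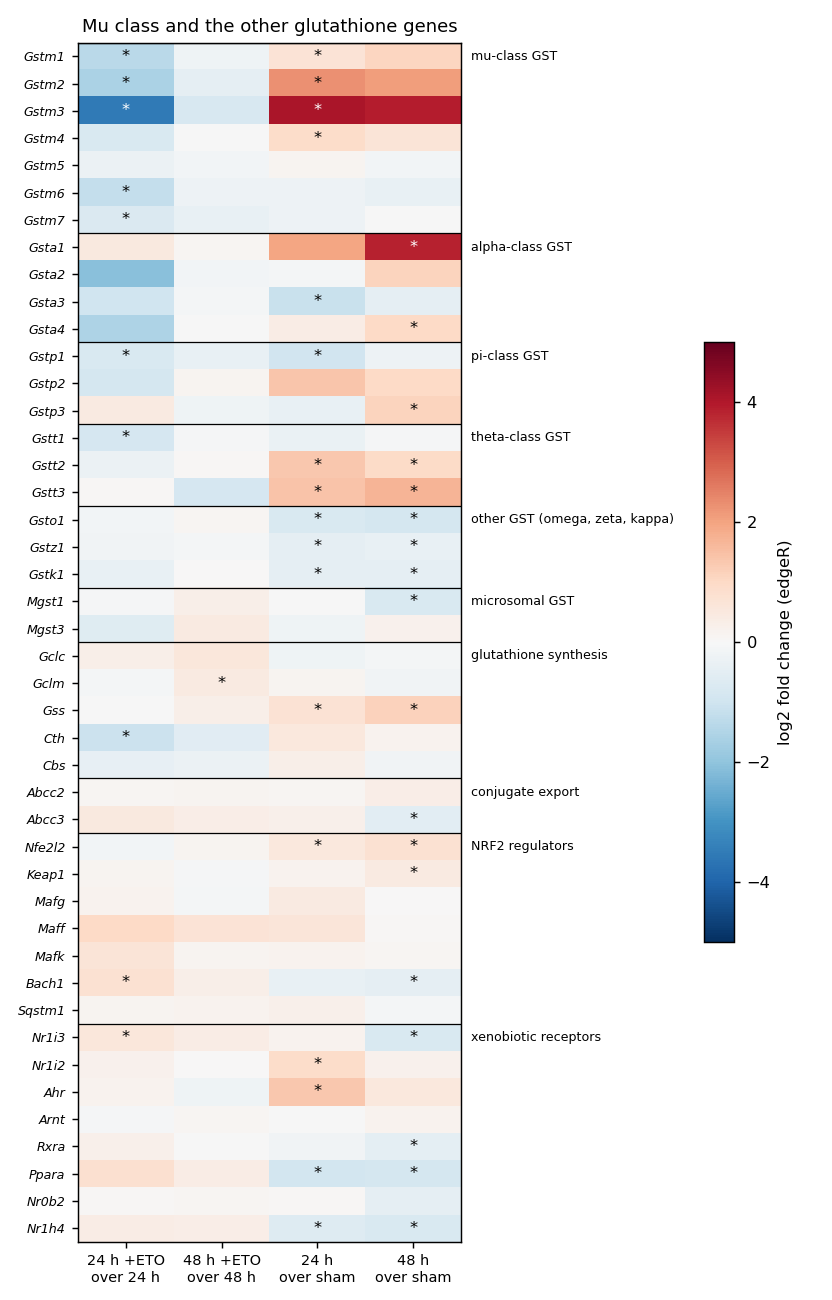
Heat map of edgeR log2 fold changes for the 7 mu-class genes and the tested genes of 9 other lists (rows) in 4 comparisons (columns), with a star where the adjusted p was under 0.05. The last column carries no star for the mu class because that contrast was not tested for it, and Gstm3 has the lowest value of the first column, -3.53.

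Among the regulators of NRF2, the transcript of Nfe2l2 itself rose at 24 h over sham by 0.53 (adjusted p = 0.00692). Keap1, Mafg, Maff, Mafk, Bach1 and Sqstm1 gave 0.16, 0.45, 0.60, 0.18, -0.36 and 0.26 and were not called. With etomoxir at 24 h, Bach1, a repressor of NRF2 target genes, rose by 0.76 (adjusted p = 0.0247). Nfe2l2, Keap1, Mafg, Maff, Mafk and Sqstm1 gave -0.12, 0.15, 0.19, 0.98, 0.64 and 0.15 there and were not called. The value of Maff rests on the highest PHx24_ETO library, with 1.83 to 14.8 FPKM in that group (mean 5.94, SD 6.1) and 1.48 to 4.04 in PHx24. At 48 h over sham Nfe2l2 rose by 0.78, Keap1 rose by 0.44 and Bach1 fell by 0.45 (adjusted p = 0.000197, 2.54e-05 and 0.0452).

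Of 15 NRF2 targets outside the transferases, 7 rose and 1 fell at 24 h over sham, where 19.1% of all genes were called higher and 15.8% lower. The lowest adjusted p values belonged to Txnrd1 (0.91, adjusted p = 3.47e-05), Hmox1 (1.69, adjusted p = 0.000782) and Ftl1 (0.64, adjusted p = 0.000988). With etomoxir at 24 h 1 of the 15 was called, Ephx1, an epoxide hydrolase, which fell by 0.63 (adjusted p = 0.0498), and Ftl1 and Srxn1 gave -0.49 (adjusted p = 0.0739) and 0.97 (adjusted p = 0.256). Srxn1 was at 31.5 to 357 FPKM in PHx24_ETO (mean 113, SD 163) and 38.2 to 98.4 in PHx24. Its positive value rests on the highest PHx24_ETO library. The list median was -0.06, against -1.19 for the mu class.

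Of 8 xenobiotic receptor genes, Ahr and Nr1i2 (PXR) rose at 24 h over sham, by 1.35 and 0.90 (adjusted p = 0.000155 and 0.00112), and Ppara and Nr1h4 fell, by 0.91 and 0.64 (adjusted p = 0.00165 and 0.0136). Nr1i3 (CAR), Arnt, Rxra and Nr0b2 gave 0.18, -0.02, -0.16 and 0.04. With etomoxir at 24 h Nr1i3 rose by 0.58 (adjusted p = 0.0494), and Ppara gave 0.79 (adjusted p = 0.0541). Nr1i2, Ahr, Arnt, Rxra, Nr0b2 and Nr1h4 gave 0.20, 0.18, -0.04, 0.27, 0.05 and 0.36 there. Of 11 tested CAR and PXR targets, 6 rose and 2 fell at 24 h over sham (against 19.1% and 15.8% of all genes), with Por at 1.84 (adjusted p = 2.28e-07), Cyp2b10 at 3.25 (adjusted p = 0.00365) and Aldh1a7 at 0.83 (adjusted p = 0.0073). With etomoxir at 24 h Cyp3a11 fell by 1.72 (adjusted p = 0.000523), Cyp2a5 gave -1.90 (adjusted p = 0.0543) and Por 0.39 (adjusted p = 0.269).

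Genes of liver zonation and sex were read beside the family, again with 19.1% of all genes called higher and 15.8% lower at 24 h over sham, and 1.58% higher and 1.33% lower with etomoxir at 24 h. Of 10 pericentral genes, 3 rose and 1 fell at 24 h over sham, led by Oat (1.58, adjusted p = 2.55e-05), Cyp2e1 (-0.99, adjusted p = 0.0053) and Lect2 (0.66, adjusted p = 0.00892). None of them was called with etomoxir at 24 h, where Oat, Rgn and Cyp1a2 gave -0.81, -0.72 and -0.62 (adjusted p = 0.0829, 0.207 and 0.493). Of 10 periportal genes 4 fell at 24 h over sham, led by Cyp2f2 (-1.38, adjusted p = 8.53e-06), Gls2 (-0.90, adjusted p = 0.000496) and Hal (-0.57, adjusted p = 0.0141). In the etomoxir contrast 4 of these 10 fell, led by Ass1 (-0.98, adjusted p = 0.0117), Gls2 (-0.93, adjusted p = 0.0166) and Cyp2f2 (-0.97, adjusted p = 0.019).

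All 10 male-biased STAT5 targets fell at 24 h over sham, with a median log2 fold change of -1.54, led by Selenbp2 (-3.45, adjusted p = 5.03e-05), Serpina12 (-2.13, adjusted p = 6.13e-05) and Cyp2d9 (-0.97, adjusted p = 0.000116). Of 4 tested female-biased genes Acot3 and Cyp2b9 rose, by 3.07 and 3.64 (adjusted p = 8.16e-05 and 0.0303), and Cyp17a1 gave 1.02 (adjusted p = 0.0717). Cyp2b9 was low, at 0.0315 to 9.01 FPKM in PHx24 (mean 1.41, SD 3.35) and 0.0368 to 0.206 in sham. Its PHx24 mean rests on the highest library. None of these 14 genes was called with etomoxir at 24 h. The lowest adjusted p values there were those of Elovl3 (-1.39, adjusted p = 0.0827), Slco1a1 (-1.11, adjusted p = 0.0863) and Ugt2b38 (-0.99, adjusted p = 0.0871), and Cyp2b9, Cyp17a1 and Acot3 gave -2.39, 0.31 and -0.25 (adjusted p = 0.284, 0.738 and 0.802). Every call in these lists for PHx24_ETO against PHx24 was lost, like those of the Gstm genes, when only those groups were fitted.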

How the data were processed

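TRIzol RNA was polyA-selected for the NEBNext Ultra kit, which does not mark strand, per the labels' protocols. Tools named in the submitters' processing notes are featureCounts 1.5.0-p3, HISAT2 2.0.5, DESeq2 1.20.0, fastp and CASAVA 1.8, with GRCm38 and mm10, and no roles. Raw read counts and FPKM for each gene and library were deposited, both made by the authors. The deposited FPKM equal the count over gene length and a library size that differs from the total of counts. How that size was set was not tested.

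Counts were fitted with edgeR 4.0.16 (R 4.3.3) by its quasi-likelihood test with TMM scaling, all 27 libraries together, on the 12376 genes that reached an FPKM of 1 in 4 or more libraries. P-values were adjusted by Benjamini-Hochberg over these genes and called under 0.05; SE came from the fold change and F. The procedure was tested on simulated data. Alternatives were DESeq2 1.42.0, limma 3.58.1 on log2(FPKM + 1) or + 0.1, other scalings and filters, and left-out libraries. Members and gene lists were chosen with earlier results of these data known. Named were all 7 members, every tested gene of the synthesis, export, NRF2 regulator and receptor lists, from other lists the 3 of lowest adjusted p in the comparison described, and the 5 genes most correlated with Gstm3 and Gstm1. Nothing states that same-numbered replicates are paired. Of 45 same-numbered pairs of deviations 12 correlated above 0.1 (-0.232 to 0.655), which cannot settle whether they are. No library was a copy of another (highest r 0.9875).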

Additional observations from a re-analysis of the deposited data

Results flagged for a closer look

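Of 45 sets of values (9 quantities in 5 groups of 4 to 7 libraries), 7 held a library far from the others by Dixon's criterion at the 95% level. Chance flags about 1 in 20 of independent, normally spread sets. The sets here share libraries and genes and their spread was not checked, so 7 of 45 is not set against that rate. PHx48 replicate 4 stood apart in 4 of the 7 sets, with 2901 FPKM of Gstm1 (next highest 2037), 280.7 of Gstm2 (next 202), 2516 of Gstm3 (next 1358) and 0.9621% of counts in the family (next 0.6186%). PHx24 replicate 5 had 363.8 FPKM of Gstm2, against 239.7 in the next library. Gstm7 was low in PHx24_ETO replicate 2, at 12.61 FPKM where the next was 22.18, and high in PHx48_ETO replicate 4, at 49.6 FPKM where the next was 26.34. The skeletal muscle markers that set other libraries apart summed to 65.37 FPKM in PHx48_ETO replicate 4, against a median of 5.247 in its group; their part in the Gstm7 value was not tested.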

How the results depend on the processing

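Over 37 alternative settings, 2244 of 2331 single-gene values kept direction and side of the threshold, 49 lost a call, 20 gained one and 15 changed sign, none of these a called value. The other 3, untested, moved by more than their SE. With equal library totals the sign changes were to 0.12 for Gstm5 and 0.21 for Gstm7 (PHx48 vs sham) and 0.012 for Gstm5 (PHx48_ETO vs PHx24_ETO), as this scaling moved the median of all genes to 0.113 for PHx24 vs sham, 0.234 for PHx48 vs sham, 0.2 for PHx48_ETO vs sham, 0.119 for PHx24_ETO vs sham and 0.114 for PHx48 vs PHx24. It gave 2973 higher and 1255 lower genes for PHx24 vs sham (2366 and 1960 with TMM), 4278 and 986 for PHx48 vs sham (2410 and 2103) and 1453 and 320 for PHx48 vs PHx24 (766 and 669). Without the 4 libraries that held muscle or pancreas transcripts, an alternative chosen after seeing the data, Gstm5 was at -0.04 (PHx24 vs sham). With 1 library left out the range was -0.538 to 0.003 for Gstm3 (PHx48 vs PHx24), -0.287 to 0.129 for Gstm4 and -0.271 to 0.001 for Gstm5 (PHx48_ETO vs PHx48), and -0.237 to 0.038 for Gstm5 (PHx48_ETO vs PHx24_ETO).

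Members called for PHx24_ETO vs PHx24 numbered 0 when only those groups were fitted, and 1 was called by DESeq2 for the difference of etomoxir effects. Genes called for PHx24_ETO vs PHx24 numbered 359, but 764 by DESeq2, 196 with no filter and 0 with only those groups; for PHx48_ETO vs PHx48 26, but 68 by DESeq2 and 11 with no filter; for the difference of effects 2, but 42 by DESeq2; the causes were not tested. With a replicate block, PHx48_ETO vs PHx48 gave 44 genes, and Gstm5 was at 0.008 there. With the same block, PHx24_ETO vs PHx24 gave 323 genes with 6 members, Gstm4 joining (edgeR adjusted p = 0.0489). Whether the shared numbers pair libraries is not known.

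Leaving out 1 library gave 3 to 4 members for PHx24 vs sham, 2 to 3 at least 2-fold apart for PHx48 vs sham, 4 to 6 for PHx24_ETO vs PHx24, 0 to 3 for the difference of effects, and 0 for PHx48 vs PHx24 and PHx48_ETO vs PHx48. Genes called were 3853 to 4775, 4101 to 4940, 138 to 1199 and 0 to 239 for the first 4, 1134 to 1949 for PHx48 vs PHx24 and 1 to 47 for PHx48_ETO vs PHx48. Groups held 4 or more libraries, with at least 113 counts for every member. The common coefficient of variation between libraries over all genes tested, which edgeR calls biological, was 0.266. Whether depth or this spread limits precision for the members was not tested.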
